A study of Mus musculus with 6 samples.

Results

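The genes described here are the 7 mouse CDK inhibitor genes Cdkn1a, Cdkn1b, Cdkn1c, Cdkn2a, Cdkn2b, Cdkn2c and Cdkn2d and the 3 Gadd45 genes Gadd45a, Gadd45b and Gadd45g. They were taken by symbol from the 27179 rows of an RNA sequencing table. All 10 were among the 13207 genes that passed the filter on low counts. The 6 libraries are from leukaemia cells of mouse spleens, sorted by their GFP with propidium iodide to mark viability. The 3 panobinostat libraries are from mice treated for 3 days with panobinostat, an inhibitor of histone deacetylases, and the 3 vehicle libraries from mice given vehicle for the same time. Both groups carry the same label, A/E9a;NRASG12D;Ifnar1-/- on a C57BL/6 background: A/E9a is a truncated form of the AML1-ETO fusion oncogene, NRASG12D an activated NRAS, and Ifnar1 the type I interferon receptor subunit that is knocked out. A single cell line name is given for all 6 libraries, and neither the age nor the genotype of the host mice is given in the sources used here. The labels do not say whether each library is from its own mouse, so the p-values below speak for the spread among the 6 libraries, and that spread may be technical.

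CDK inhibitors hold back the cyclin-dependent kinases that drive the cell cycle. The CIP/KIP proteins, encoded by the Cdkn1 genes, bind complexes of cyclins with several kinases, and the INK4 proteins, encoded by the Cdkn2 genes, bind CDK4 and CDK6. Gadd45 proteins are small stress-induced proteins that bind PCNA, CDK1 with cyclin B, and the kinase MAP3K4 upstream of p38 and JNK. Cdkn1a, which encodes p21, is a classical gene that histone deacetylase inhibitors induce in many cell types. The comparison asks whether these transcripts differ in the leukaemia cells after the drug.

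Library totals ran from 31989622 to 35962605 counts. Vehicle library 1 stood apart from its group: over all tested genes its log2 CPM (log2 of CPM, the counts scaled to library size) had a Pearson r of 0.954, 0.976 and 0.984 with panobinostat libraries 1, 2 and 3, against 0.942 and 0.941 with vehicle libraries 2 and 3. Panobinostat library 1 stood apart on the second principal component. Vehicle library 1 was thus more like the panobinostat libraries than like its own group. Whether its label is right was not tested, nor was any other cause. Vehicle library 1 was kept in the group its column names, and every fold change over all 6 libraries rests on that label. Results are given with all libraries and without these. Both were left out for where they stood in these same data, so the p-values without them are too small and are given as descriptions of the remaining libraries. Runx1t1, the mouse gene for ETO, was at 161 to 225 CPM and Kit, the stem cell factor receptor, at 121 to 266 CPM, while Mpo, the granulocyte precursor enzyme, was at most 0.422 CPM. Ifnar1, knocked out in both groups, was counted at 35.7 to 46.4 CPM in panobinostat and 36.9 to 48.0 CPM in vehicle libraries, which is no check of the genotype, since exons outside a deletion can still give reads.

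With all 6 libraries, edgeR's quasi-likelihood test called 0 of the 10 genes higher and 0 lower with panobinostat, where it called 0% of the 13207 tested genes. None of the 10 had an unadjusted p under 0.05 in edgeR, where 301 of all tested genes did. Limma-voom also called 0 of the 10, where it called 0% of genes, and DESeq2 called 0, where it called 0.0681%, with Gadd45a at an unadjusted p under 0.05, as were 422 of all genes tested. In no gene did the 3 panobinostat libraries all lie on one side of the 3 vehicle libraries, which was so for 7.43% of tested genes. The median log2 fold change (panobinostat over vehicle) was -0.06 over the 10 genes and 0.0009 over all tested genes. Of the 10 genes, 8 had their highest CPM in vehicle library 1, while 22.4% of tested genes did, and Cdkn2c had its lowest there.

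**Figure D1:**
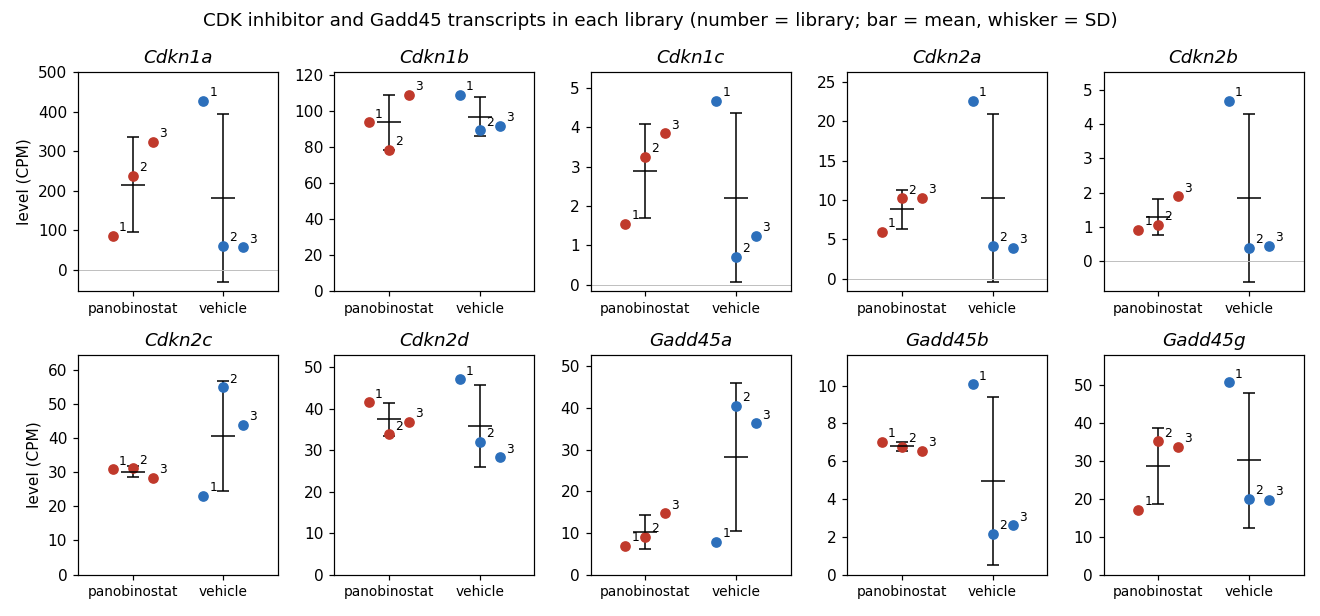
Level of each of the 10 genes in CPM on a linear axis, with panobinostat libraries at the left and vehicle libraries at the right of each panel, each point a library with its number, the bar the mean and the whisker the SD of 3 libraries. Vehicle library 1 lies above vehicle libraries 2 and 3 for 8 genes, and below them for Cdkn2c and Gadd45a.

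Cdkn1a (Entrez gene 12575, chromosome 17, 29090979 to 29100722, GRCm38), which encodes the CIP/KIP inhibitor p21, had the highest mean level of the 10 genes per exon length over the 6 libraries, and was first in panobinostat libraries 2 and 3 and vehicle library 1 but not in the others. It stood at 85.9, 238 and 324 CPM in panobinostat libraries 1, 2 and 3, against 428, 60.3 and 56.9 CPM in vehicle libraries 1, 2 and 3. The groups overlapped because vehicle library 1 was the highest of all 6, at 7.30 times the mean of vehicle libraries 2 and 3. All 3 panobinostat libraries were above those other two, and panobinostat library 1 was the nearest to them. The log2 fold change of Cdkn1a was 0.25 (SE 0.90), with an adjusted p of 0.998 in edgeR's test. Without vehicle library 1 it was 1.87 (SE 0.56), with an adjusted p of 0.152, and without both libraries numbered 1 it was 2.25 (SE 0.16), with an adjusted p of 0.0016 in edgeR. An antisense gene, AC167363.2, shares 273 exon bases with Cdkn1a, and reads there cannot be told apart without a stated strand setting. Over the 6 libraries, the SD of its log2 CPM was 1.29, and 95.5% of tested genes had a smaller one.

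The starts of Cdkn1a are shown because p21 is the gene of the set most often tied to histone deacetylase inhibition, and its transcripts from both starts are summed in the counts. RefSeq windows of 300 bases on GRCm38.p6, 250 before and 50 after a start, were matched for 9 of the 10 genes (all but Cdkn1c). Capitals mark matches on either strand to GGGCGG, the GC box that Sp factors bind, to CCAAT, to the octamer ATGCAAAT, and to CATG, any 6 bases and CATG again, a spacing of cores found in p53 elements. The 4 motifs were in 35.6%, 37.4%, 1.74% and 0.71% of 32817 such windows, in that order. The upstream window lies at chr17:29090729-29091028 and the downstream one at chr17:29093519-29093818, both on the plus strand.
Cdkn1a upstream start: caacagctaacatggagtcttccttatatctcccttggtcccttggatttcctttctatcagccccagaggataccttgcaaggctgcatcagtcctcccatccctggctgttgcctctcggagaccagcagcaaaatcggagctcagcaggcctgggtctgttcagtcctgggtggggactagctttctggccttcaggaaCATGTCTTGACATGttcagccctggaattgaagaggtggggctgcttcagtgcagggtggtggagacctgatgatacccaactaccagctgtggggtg
Cdkn1a downstream start: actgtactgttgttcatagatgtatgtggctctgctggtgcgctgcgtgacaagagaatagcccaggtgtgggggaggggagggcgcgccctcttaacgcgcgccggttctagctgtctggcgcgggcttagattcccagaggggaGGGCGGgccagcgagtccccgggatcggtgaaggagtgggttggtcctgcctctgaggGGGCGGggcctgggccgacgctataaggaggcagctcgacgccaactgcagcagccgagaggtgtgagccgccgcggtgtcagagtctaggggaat
The upstream window held 1 match to the spaced CATG pair, beginning 48 bases before the start, and the downstream window held 2 GC boxes, beginning 104 and 46 bases before it. A match describes the letters of the reference and not a bound site, and gene counts do not tell the starts apart.

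Cdkn1b (chromosome 6, 134920401 to 134925525), which encodes the CIP/KIP inhibitor p27, was the steadiest of the set. It stood at 94.0, 78.6 and 109 CPM in panobinostat libraries 1, 2 and 3, against 109, 89.5 and 92.1 CPM in vehicle libraries 1, 2 and 3, so that the groups overlapped closely. Its log2 fold change was -0.046 (SE 0.15) with all libraries and 0.037 (SE 0.15) without vehicle library 1, with adjusted p of 0.998 and 0.916 in edgeR. The SD of its log2 CPM over the 6 libraries was 0.18, and 37.8% of tested genes had a smaller one.

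Cdkn1c (chromosome 7, 143458339 to 143461059) encodes p57, the remaining CIP/KIP inhibitor, and is imprinted. It was near the lower end of what was tested, at 1.56, 3.26 and 3.85 CPM in panobinostat libraries 1, 2 and 3, against 4.68, 0.717 and 1.25 CPM in vehicle libraries 1, 2 and 3. As with Cdkn1a, vehicle library 1 was the highest and vehicle libraries 2 and 3 the lowest. The counts behind these values were 56, 116 and 130 in panobinostat libraries and 148, 25 and 43 in vehicle libraries. An antisense gene, Gm44732, shares 625 exon bases with Cdkn1c, and reads there cannot be told apart without a stated strand setting. The log2 fold change of Cdkn1c was 0.39 (SE 0.75, adjusted p 0.998 in edgeR), 1.54 (SE 0.52, adjusted p 0.183) without vehicle library 1, and 1.84 (SE 0.37, adjusted p 0.0278) without both libraries numbered 1.

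Cdkn2a (chromosome 4, 89274473 to 89294619) encodes the INK4 inhibitor p16 and, from another start and reading frame, ARF, which blocks the p53 antagonist MDM2. The gene counts sum both. It stood at 6.00, 10.2 and 10.3 CPM in panobinostat libraries 1, 2 and 3, against 22.6, 4.22 and 3.97 CPM in vehicle libraries 1, 2 and 3. Cdkn2b, which encodes p15 and lies 11669 bases away (89306289 to 89311032), stood at 0.917, 1.07 and 1.90 CPM in panobinostat libraries, against 4.68, 0.402 and 0.464 CPM in vehicle libraries 1, 2 and 3. Both neighbours were highest in vehicle library 1, lowest in vehicle libraries 2 and 3, and between those levels in all panobinostat libraries. Vehicle library 1 was 5.51 times the mean of vehicle libraries 2 and 3 for Cdkn2a and 10.8 times for Cdkn2b. The 6 Cdkn2b values rest on few reads, 33, 38 and 64 counts in panobinostat libraries and 148, 14 and 16 in vehicle libraries.

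The direction of both neighbours turned with vehicle library 1. The log2 fold change of Cdkn2a was -0.22 (SE 0.72, adjusted p 0.998 in edgeR) with all libraries, 1.09 (SE 0.30, adjusted p 0.123) without vehicle library 1, and 1.31 (SE 0.18, adjusted p 0.00758) without both libraries numbered 1. That of Cdkn2b was -0.51 (SE 1.00, adjusted p 0.998 in edgeR), then 1.56 (SE 0.49, adjusted p 0.161) and 1.76 (SE 0.47, adjusted p 0.0620) in the same settings. The root mean square difference between the centred log2 CPM values of Cdkn2a and Cdkn2b was 0.371. Some genes on different chromosomes were about as close: Cdkn1a and Cdkn1c were also at 0.371, and Cdkn1c and Cdkn2a at 0.374. Of the 45 pairs of the 10 genes, Cdkn1b and Cdkn2d, which had the least spread, were the closest, at 0.20. Cdkn2a and Cdkn2b came next.

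Cdkn2c, which encodes the INK4 inhibitor p18 and also lies on chromosome 4 (109660876 to 109666756), ran the other way. It stood at 30.9, 31.1 and 28.3 CPM in panobinostat libraries 1, 2 and 3, against 23.1, 54.9 and 43.9 CPM in vehicle libraries 1, 2 and 3. The panobinostat libraries lay close together, between vehicle library 1 and the other vehicle libraries. For Cdkn2c the log2 fold change was -0.43 (SE 0.30, adjusted p 0.998 in edgeR). Without vehicle library 1 Cdkn2c fell by 0.72 on the log2 scale (SE 0.12), with an adjusted p of 0.0499 at the edge of the threshold, and limma-voom on the same 5 libraries gave an adjusted p of 0.0591. Without both libraries numbered 1 it fell by 0.74 (SE 0.13, adjusted p 0.0188 in edgeR).

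Cdkn2d (chromosome 9, 21288459 to 21291421), the p19 member of the INK4 family, varied the least of the set after Cdkn1b. The SD of its log2 CPM over the 6 libraries was 0.26, and 56.2% of tested genes had a smaller one. Cdkn2d stood at 41.6, 33.8 and 36.9 CPM in panobinostat libraries 1, 2 and 3, against 47.0, 32.1 and 28.3 CPM in vehicle libraries 1, 2 and 3. The groups overlapped through vehicle library 1, which was the highest. Its log2 fold change was 0.064 (SE 0.21, adjusted p 0.998 in edgeR) and 0.30 (SE 0.13, adjusted p 0.266) without vehicle library 1.

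Gadd45a (chromosome 6, 67035096 to 67037407), the family member first found as induced by DNA damage and a p53 target, had the largest estimate of the 10 genes. It stood at 6.92, 8.99 and 14.7 CPM in panobinostat libraries 1, 2 and 3, against 7.93, 40.5 and 36.3 CPM in vehicle libraries 1, 2 and 3. All panobinostat libraries and vehicle library 1 were low, and vehicle libraries 2 and 3 were high. Among the vehicle libraries this was the reverse of Cdkn1a, while among the panobinostat libraries both genes rose from library 1 to library 3. The log2 fold change was -1.47 (SE 0.62), with an unadjusted p of 0.0535 and an adjusted p of 0.998 in edgeR's test. Without vehicle library 1 Gadd45a fell by 1.92 on the log2 scale (SE 0.32, adjusted p 0.0498 in edgeR), again at the edge of the threshold, and limma-voom there gave an adjusted p of 0.0369. Without both libraries numbered 1 it fell by 1.71 (SE 0.23, adjusted p 0.0103 in edgeR). An antisense gene, E230016M11Rik, shares 337 exon bases with Gadd45a and was counted at 0.450 to 0.834 CPM in panobinostat libraries and 0.695 to 1.77 CPM in vehicle libraries. Without a stated strand setting, reads of the shared stretch cannot be told apart.

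Gadd45b (chromosome 10, 80930091 to 80932204), which in other mouse cells responds to NF-kB and TGF-beta signals, had the steadiest panobinostat values of the family. It stood at 7.03, 6.77 and 6.55 CPM in panobinostat libraries 1, 2 and 3, against 10.1, 2.15 and 2.61 CPM in vehicle libraries 1, 2 and 3. The 3 panobinostat libraries were again between vehicle library 1 and the other vehicle libraries. The log2 fold change of Gadd45b was 0.46 (SE 0.60, adjusted p 0.998 in edgeR). Without vehicle library 1 Gadd45b rose by 1.497 (SE 0.22, adjusted p 0.0376 in edgeR, 0.0417 in limma-voom), and without both libraries numbered 1 by 1.47 (SE 0.23, adjusted p 0.0128 in edgeR).

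Gadd45g (chromosome 13, 51846675 to 51848475), the member known as a cytokine-responsive gene, stood at 17.01, 35.1 and 33.6 CPM in panobinostat libraries 1, 2 and 3, against 50.6, 20.0 and 19.7 CPM in vehicle libraries 1, 2 and 3. Here panobinostat library 1 was the lowest of all 6 and panobinostat libraries 2 and 3 were above vehicle libraries 2 and 3. For Gadd45g the log2 fold change was -0.074 (SE 0.46, adjusted p 0.998 in edgeR), 0.52 (SE 0.33, adjusted p 0.435) without vehicle library 1, and 0.78 (SE 0.10, adjusted p 0.00693) without both libraries numbered 1.

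The starts of Gadd45a and Gadd45b are shown because these paralogs were called in opposite directions once vehicle library 1 was left out. Capitals mark the same 4 motifs as for Cdkn1a. The Gadd45a window lies on the minus strand at chr6:67037358-67037657 and the Gadd45b window on the plus strand at chr10:80929841-80930140, both on GRCm38.p6.
Gadd45a start: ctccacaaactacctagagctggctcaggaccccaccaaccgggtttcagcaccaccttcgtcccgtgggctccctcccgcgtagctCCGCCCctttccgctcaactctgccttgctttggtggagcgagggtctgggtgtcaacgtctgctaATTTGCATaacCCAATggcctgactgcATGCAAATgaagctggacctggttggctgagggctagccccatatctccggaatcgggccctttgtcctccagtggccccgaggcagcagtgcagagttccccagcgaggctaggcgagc
Gadd45b start: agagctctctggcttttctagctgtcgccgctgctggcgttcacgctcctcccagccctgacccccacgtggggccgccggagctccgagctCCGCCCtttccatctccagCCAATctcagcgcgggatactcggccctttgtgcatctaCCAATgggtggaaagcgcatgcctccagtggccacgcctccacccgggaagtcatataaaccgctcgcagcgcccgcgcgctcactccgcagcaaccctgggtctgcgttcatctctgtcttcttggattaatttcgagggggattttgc
The Gadd45a window held 2 octamer matches, beginning 97 and 70 bases before the start, with a CCAAT between them, and the Gadd45b window held none. Each had 1 GC box, and that of Gadd45b had 2 CCAAT matches. Gadd45g, whose window is not shown, held 1 octamer match.

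**Figure D2:**
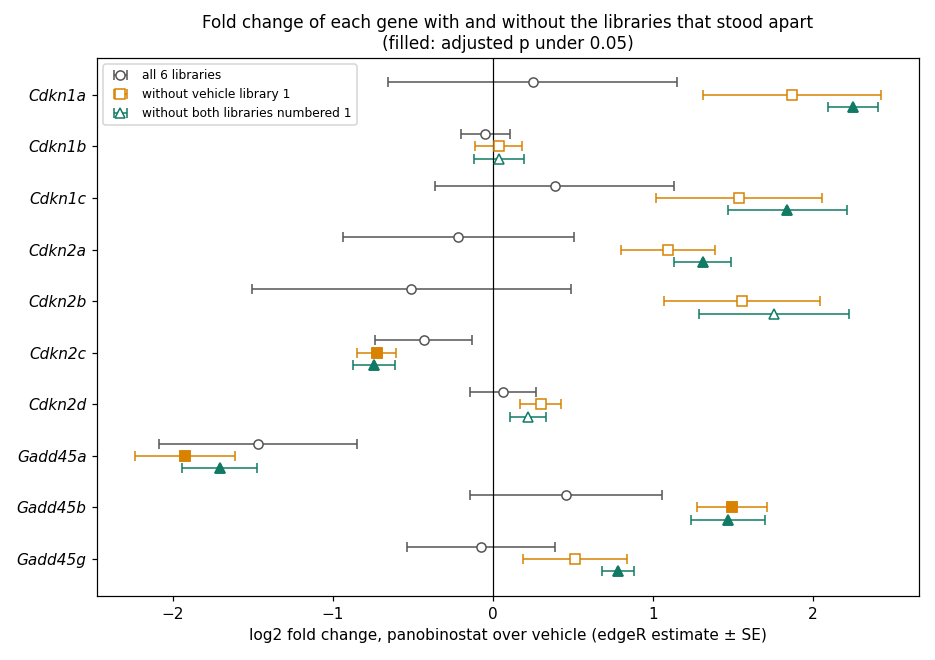
Log2 fold change of each gene, panobinostat over vehicle, as edgeR's estimate with its SE, from all 6 libraries, without vehicle library 1, and without both libraries numbered 1, with filled symbols where the adjusted p was under 0.05. Cdkn1a moves from 0.25 to 1.87 and 2.25, while Gadd45a stays between -1.92 and -1.47 and Cdkn1b between -0.046 and 0.038.

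Across the 10 genes, then, what was called rested on vehicle library 1. Without it, 1 gene of the 10 was called higher (Gadd45b), where 2% of 13369 tested genes were, and 2 were called lower (Gadd45a and Cdkn2c), where 0.419% were. In the same setting the panobinostat libraries did not overlap the 2 remaining vehicle libraries for 6 of the 10 on the higher side and 2 on the lower side, against 20.1% and 21.3% of tested genes. DESeq2 on those 5 libraries called 3 higher, adding Cdkn1a (adjusted p 0.0465) and Cdkn2a (0.0136) to Gadd45b, and 2 lower, where it called 7.64% and 3.59% of tested genes. Limma-voom there called Gadd45b higher, where 1.35% of genes were, and Gadd45a lower, where 0.262% were. EdgeR without its robust option made the same 2 calls among the 10, where 2.04% of genes were called higher and 0.419% lower. Without both libraries numbered 1, edgeR called 5 higher (Cdkn1a, Cdkn1c, Cdkn2a, Gadd45b and Gadd45g), where 7.36% of 13239 genes were, and 2 lower (Gadd45a and Cdkn2c), where 4.65% were. There 7 of the 10 did not overlap on the higher side and 2 on the lower side, against 28.6% and 30.7% of genes. Cdkn1b, Cdkn2b and Cdkn2d were not called in any setting run. Leaving out any other single library gave 0 calls among the 10.

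Centred on each gene's mean over the 6 libraries, the set showed opposite patterns among the vehicle libraries. Cdkn1a, Cdkn1c, Cdkn2a, Cdkn2b, Gadd45b and Gadd45g were above their means in vehicle library 1, by 0.90 to 2.03 on the log2 scale, and below them in vehicle libraries 2 and 3. Cdkn2c and Gadd45a were below their means in vehicle library 1, at -0.55 and -0.90, and above them in vehicle libraries 2 and 3. In panobinostat library 1 Cdkn1a stood at -0.77 and Gadd45b at 0.46, so the first group of genes did not move as one there. The pairs least alike were Cdkn2b with Gadd45a and Cdkn1a with Gadd45a, the second with a root mean square difference of 1.995.

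**Figure D3:**
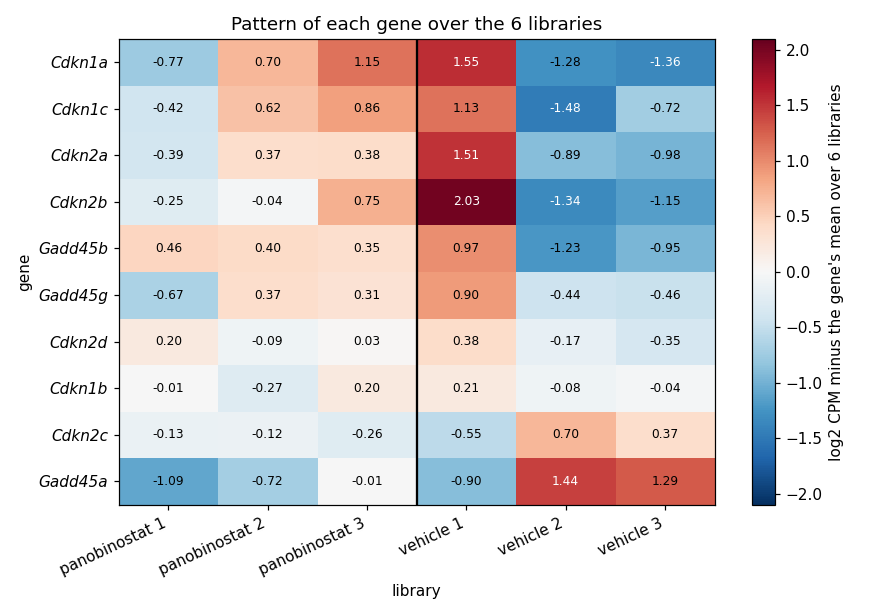
Log2 CPM of each gene minus its mean over the 6 libraries (colour and printed value), with genes as rows and libraries as columns, panobinostat at the left of the line and vehicle at the right. Vehicle library 1 is red for 8 genes, and blue for Cdkn2c at -0.55 and Gadd45a at -0.90.

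Per kilobase of exon, levels of different genes can be set beside each other. Averaged over the 6 libraries, Cdkn1a came first at 56.0 CPM per kilobase. That was higher than 93.1% of the 11331 tested genes with a single protein-coding entry in GENCODE. Gadd45g, Cdkn2d and Cdkn1b followed at 25.02, 23.2 and 21.0, then Cdkn2c at 13.2, Gadd45a at 10.9 and Cdkn2a at 8.14. Gadd45b at 3.69, Cdkn1c at 1.25 and Cdkn2b at 1.13 CPM per kilobase were the lowest. Of the 9 neighbouring pairs in that order, only Cdkn2a above Gadd45b and Gadd45b above Cdkn1c held in 6 of 6 libraries. Cdkn1a was above Gadd45g in 4 of 6, and Gadd45g above Cdkn2d in 3 of 6. Cdkn1a stood at 60.8 ± 33.9 in panobinostat and 51.2 ± 60.0 CPM per kilobase in vehicle libraries (SD, n = 3 each), while Cdkn1b stood at 20.6 ± 3.35 in panobinostat and 21.3 ± 2.37 in vehicle libraries.

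**Figure D4:**
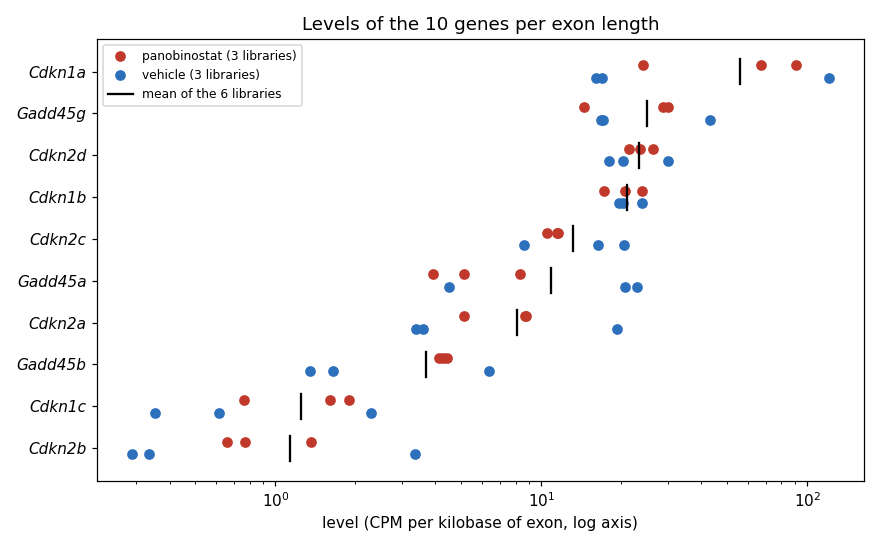
Level of each gene in CPM per kilobase of exon on a log axis, with the 3 panobinostat libraries above the 3 vehicle libraries in each row and a line at the mean of the 6. Cdkn1a is first with a mean of 56.0 and Cdkn2b last with 1.13.

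The genes with patterns most like Cdkn1a were, in order, Zfp385a, Bahcc1, Gm15915, Dlg4 and Dctd, with root mean square differences of 0.15, 0.20, 0.21, 0.25 and 0.26 over the 6 libraries. Zfp385a, a zinc finger gene, stood at 26.9, 61.5 and 96.8 CPM in panobinostat libraries 1, 2 and 3, against 119, 21.7 and 17.1 CPM in vehicle libraries 1, 2 and 3. Like Cdkn1a it was highest in vehicle library 1 and lowest in the other vehicle libraries. For Cdkn2a the closest were P2ry1 (0.093), a receptor for ADP, and Dok3 (0.11), for Cdkn2b Ubash3b (0.21) and Fgd2 (0.21), and for Cdkn1c Fgf2 and Zfp36 (both 0.20). For Gadd45b they were Neil2 and Asap2 (both 0.13), and for Gadd45g Ccdc92 (0.094) and Piga (0.12). Cdkn2c was closest to Hspb6 (0.051) and Dut (0.063), Cdkn1b to Zfand5 (0.055) and Npff (0.059), and Cdkn2d to Lrrfip2 (0.044) and Polr1e (0.047). Gadd45a had no very close match, with Brpf3 and Nxpe4 nearest at 0.31 and 0.32.

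Genes around the CDK inhibitors were described from 5 related lists, of which edgeR called 0 members with all 6 libraries, as for all tested genes. Over all tested genes, 50.2% had a higher estimate and the median log2 fold change was 0.0009, the background for the counts below. Without vehicle library 1, edgeR called 2% of all tested genes higher and 0.419% lower. Without both libraries numbered 1 it called 7.36% higher and 4.65% lower. These shares are the background for the calls below. Of 15 tested cyclins and CDKs, 4 had a higher and 11 a lower estimate, with a median log2 fold change of -0.11. Cdk7, a kinase that activates other CDKs, Ccnd1 and Ccne2 had the smallest p, and Ccnd1, the cyclin D1 gene, stood at 2.08, 1.88 and 1.601 CPM in panobinostat libraries, against 1.99, 2.75 and 2.49 CPM in vehicle libraries 1, 2 and 3. Ccnb1 and Ccnb2, the mitotic B cyclins, were lower in panobinostat libraries once both libraries numbered 1 were left out, with log2 fold changes of -0.46 (SE 0.094) and -0.48 (SE 0.096) and adjusted p of 0.0283 and 0.0267 in edgeR. With all libraries Ccnb1 stood at 124, 122.6 and 129 CPM in panobinostat libraries, between vehicle library 1 at 91.8 CPM and vehicle libraries 2 and 3 at 183 and 161 CPM.

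In the RB and E2F family, 6 of 16 tested genes had a higher estimate and the median was -0.05. E2f7, an atypical repressor E2F, had the smallest p of the 5 lists, at 35.997, 42.9 and 42.4 CPM in panobinostat libraries, against 33.8, 32.3 and 33.0 CPM in vehicle libraries 1, 2 and 3. Its groups did not overlap, and its log2 fold change was 0.29 (SE 0.11, adjusted p 0.998 in edgeR). E2f6 was also above all vehicle libraries (log2 fold change 0.51, SE 0.23, adjusted p 0.998), and E2f5 was below them. Lin9, a subunit of the DREAM complex, had the next smallest p, with a log2 fold change of -0.45 (SE 0.26, adjusted p 0.998 in edgeR). It fell by 0.71 without vehicle library 1 (SE 0.097, adjusted p 0.0319 in edgeR) and by 0.74 without both libraries numbered 1 (SE 0.10, adjusted p 0.00763), and there Tfdp2, an E2F partner, rose by 0.64 (SE 0.13, adjusted p 0.0273).

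Among 13 genes for the turnover of CDK inhibitors, 2 had a higher and 11 a lower estimate, with a median of -0.07. Cul4a, a ubiquitin ligase scaffold, and Skp1, the adaptor of SCF ligases, had the smallest p, and Skp1 was lower in all 3 panobinostat libraries, at 140, 148 and 146 CPM, than in vehicle libraries 1, 2 and 3, at 151, 185 and 160 CPM. Ubac1, a subunit of a ligase for p27, had the next smallest p. It stood at 75.4, 77.7 and 79.4 CPM in panobinostat libraries, against 45.3, 138 and 120 CPM in vehicle libraries 1, 2 and 3, and fell by 0.75 without vehicle library 1 (SE 0.091, adjusted p 0.0284 in edgeR). Ubac1, Cdc20 and Cks1b, 3 of the 13, were called lower without both libraries numbered 1, where 4.65% of all tested genes were.

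Of 24 tested transcription regulators, 8 had a higher estimate, and the median was -0.06. The smallest p were those of Foxo4, Sp3 and Ezh2, with estimates of -0.26, -0.20 and -0.16. Id1, an inhibitor of basic helix-loop-helix factors, stood at 22.7, 30.7 and 28.3 CPM in panobinostat libraries, against 39.3, 12.3 and 14.1 CPM in vehicle libraries 1, 2 and 3. It was the member called without vehicle library 1, where it rose by 1.03 (SE 0.17, adjusted p 0.0481 in edgeR). With Gfi1b it was called higher without both libraries numbered 1, where 7.36% of all tested genes were. Trp53, the gene of p53, was at 336, 343 and 340 CPM in panobinostat libraries, against 332, 318 and 317 CPM in vehicle libraries 1, 2 and 3, a log2 fold change of 0.076 (SE 0.087, adjusted p 0.998 in edgeR). Its groups did not overlap, but it was not called with all libraries, without vehicle library 1, or without both libraries numbered 1. Mdm2, a p53 target and antagonist, was at 78.8, 107 and 124 CPM in panobinostat libraries, against 156, 85.3 and 93.9 CPM in vehicle libraries 1, 2 and 3, highest in vehicle library 1 as Cdkn1a was.

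Of 18 tested Gadd45 partners, 8 had a higher estimate, with a median of -0.03. Map3k4, the kinase that Gadd45 proteins activate, stood at 59.6, 47.7 and 49.8 CPM in panobinostat libraries, against 36.1, 38.2 and 48.0 CPM in vehicle libraries 1, 2 and 3, with a log2 fold change of 0.36 (SE 0.15, unadjusted p 0.0512, adjusted p 0.998 in edgeR). Tet3 was above all vehicle libraries and Map2k3 had the third smallest p. Without vehicle library 1 no partner was called. Of the 18, 1 (Map2k3) was called higher without both libraries numbered 1, where 7.36% of all tested genes were. There 3 (Aurka, Ccnb1 and Map2k4) were called lower, where 4.65% of all tested genes were.

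Markers of other cells also differed between the libraries. In bulk samples, fewer cells of a type and less RNA per cell cannot be told apart. The 14 megakaryocyte and platelet markers summed to 577 to 812 CPM in panobinostat libraries and 530 to 993 CPM in vehicle libraries, highest in vehicle library 1. Among them Itga2b, the integrin chain CD41, stood at 13.0, 54.5 and 85.9 CPM in panobinostat libraries, against 149, 3.99 and 2.90 CPM in vehicle libraries 1, 2 and 3, the same order of the 6 libraries as for Cdkn1a. Other markers of the list did not follow that order: Gp5 was highest in panobinostat library 2 at 307 CPM and lowest in panobinostat library 1 at 211 CPM, Pf4 was highest in panobinostat library 2 at 21.7 CPM, and Vwf in panobinostat library 1 at 2.03 CPM. Of the 14, 4 were below 1 CPM in every library. The 10 erythroid markers in the table summed to 2526, 16858 and 22079 CPM in panobinostat libraries 1, 2 and 3, against 22839, 13506 and 7323 CPM in vehicle libraries 1, 2 and 3. The 12 mast cell and basophil markers summed to 4748 CPM in panobinostat library 1 and 2537 to 2735 CPM in the other libraries. Genes of that list did not move as one. Fcer1a stood at 27.4 to 33.1 CPM in panobinostat libraries, against 60.8, 4.82 and 2.99 CPM in vehicle libraries 1, 2 and 3. Cma1 was likewise higher in vehicle library 1 (84.5 CPM) than in vehicle libraries 2 and 3 (5.71 and 2.15 CPM). Hdc, Ms4a2 and Il1rl1 were lowest in vehicle library 1, at 420, 239 and 760 CPM. The part of all these markers in the results above was not tested.

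Lymphoid, granulocyte, monocyte and dendritic cell markers were low beside the erythroid and mast cell sums. The 12 B cell markers summed to 10.04 to 68.3 CPM in panobinostat libraries and 57.0 to 125 CPM in vehicle libraries, and the 12 T cell markers to 2.47 to 14.4 CPM in panobinostat and 11.9 to 16.2 CPM in vehicle libraries. The 8 NK cell markers stayed below 1 CPM each, with Klra4 at 0 in every library. The 12 granulocyte markers summed to 1.56 to 6.32 CPM in panobinostat and 5.57 to 7.11 CPM in vehicle libraries, the 12 monocyte and macrophage markers to 14.98 to 34.7 CPM in panobinostat and 20.8 to 30.3 CPM in vehicle libraries, and the 10 dendritic cell markers to 57.5 to 67.4 CPM in panobinostat and 49.5 to 67.1 CPM in vehicle libraries. The 10 stem and progenitor markers summed to 1111 to 1585 CPM in panobinostat and 1081 to 1260 CPM in vehicle libraries, with Mecom and Hoxa9 at 0 in every library. Gata2, which is also in the mast cell list, made up 758 to 1112 CPM of these sums in panobinostat and 649 to 944 CPM in vehicle libraries. Most of the rest was Kit and Runx1t1, while Cd34 was at most 6.09 CPM, Ly6a at most 1.01 CPM and Procr at most 0.112 CPM. Their part in the results was not tested either.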

How the data were processed

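The genes and the related lists were chosen with earlier results of these data known. The authors deposited raw counts of reads per gene, all whole numbers, in a single table of 6 libraries. Per the submitters' processing notes, cutadapt 2.1, HISAT2 2.1.0, featureCounts and Subread 2.0.0 were used with mouse build mm10. The sources used here do not give options, annotation or strand setting.

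Entrez identifiers were matched to RefSeq symbols of GRCm38.p6 (which is mm10) for 25275 of 27179 rows. The number in a column's name is not tied to a replicate number of the labels, so libraries are named by group and column number. The test was that of edgeR 4.0.16 (R 4.3.3). FilterByExpr (minimum count 10) chose the genes tested, TMM set the library sizes, and a robust quasi-likelihood F-test, which is two-sided, gave the p-values. Benjamini-Hochberg adjustment ran over all tested genes, and 0.05 was the threshold for a call. The standard error is the size of the log2 fold change divided by the square root of F. CPM uses the TMM-scaled library size. Exon lengths are unions over GENCODE M21 transcripts.

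The rule for named genes took all 10 genes, of each related list the 3 tested genes with the smallest p, and the genes whose pattern was most like each of the 10, which were 5 for Cdkn1a and 2 for each other gene. For likeness, log2 CPM with a prior count of 2 was centred on each gene's mean, among genes with mean log2 CPM of at least 1. List genes that were called once a library was left out, E2f5, Trp53, Mdm2 and single marker genes were named after their values were seen.

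Alternatives were RLE factors, library size only, upper-quartile factors, testing genes without any filter or with a mean level of 1 CPM or more, DESeq2 1.42.0, limma-voom (limma 3.58.1), no robust option, a replicate block, each library left out, and both libraries numbered 1 left out. DESeq2, limma-voom and the fit without the robust option were also run without vehicle library 1, which was chosen after seeing the data.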

Additional observations from a re-analysis of the deposited data

How the results depend on the processing

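With all 6 libraries, edgeR called 0 of the 10 genes and 0 of all genes under every scaling and filter tried, in limma-voom, without the robust option and with the replicate block; DESeq2 called 9 genes overall and none of the 10. Over the fits that leave out a single library, the calls ran from 0 to 324 over all genes, from 0 to 3 among the 10, and from 0 to 8 for genes of the 10 whose groups do not overlap, and every value above 0 was that without vehicle library 1. Without both libraries numbered 1 these were 1590, 7 and 9. Without vehicle library 1, DESeq2 called 1502 genes and 5 of the 10, limma-voom 215 and 2, and the fit without the robust option 329 and 2.

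Direction was the same over these settings for Cdkn2c, Gadd45a and Gadd45b. Leaving out single libraries, the log2 fold change ran from -0.17 to 1.87 for Cdkn1a (below 0 without panobinostat library 3, and without vehicle library 2 or 3), from -0.17 to 0.062 for Cdkn1b, from -0.031 to 1.54 for Cdkn1c, from -0.60 to 1.09 for Cdkn2a, from -0.98 to 1.56 for Cdkn2b, from -0.078 to 0.30 for Cdkn2d and from -0.30 to 0.52 for Gadd45g. Values were above 0, unlike with all 6 libraries, without both libraries numbered 1 for Cdkn1b (0.038), Cdkn2a (1.31), Cdkn2b (1.76) and Gadd45g (0.78). The same held without vehicle library 1 in DESeq2 (0.048, 1.11, 1.58 and 0.53 for these 4 genes), in limma-voom (0.024, 1.05, 1.46 and 0.44) and without the robust option (0.037, 1.09, 1.56 and 0.52). Without both libraries numbered 1, the value was 2.25 for Cdkn1a and 1.84 for Cdkn1c. With all 6 libraries, limma-voom gave 0.27 for Cdkn2a, 0.38 for Cdkn2b and 0.014 for Gadd45g, and the replicate block 0.33, 0.45 and 0.042. The cause of these reversals was not tested.

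The replicate block uses the number in the column names. Deviations from the group means correlated at -0.139, 0.072 and -0.203 for libraries 1, 2 and 3 of the groups. For libraries with unlike numbers the correlations ran from -0.177 to 0.233. With 3 libraries in each group, these values cannot show whether libraries of the same number were paired. The block called 0 of all genes and 0 of the 10. Gadd45a had an unadjusted p of 0.0447 in edgeR with the block, and 468 of all genes were under 0.05 there. Cdkn2b and Cdkn1c have the fewest counts and the least depth behind them.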
